A study of Mus musculus with 12 samples.

Results

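ATF4 is the transcription factor through which cells answer a shortage of amino acids or stress in protein folding, and 40 genes that it is known to control, Atf4 itself among them, are described here across 12 RNA libraries of mouse fibroblasts. The genes were taken by symbol from a fixed list of amino acid synthesis, amino acid transport, tRNA charging and stress regulator genes. All 40 were found among the 48795 genes of the deposited tables, and all 40 passed the low-count filter that left 14704 genes to be tested, Gdf15 through clone libraries alone. The libraries came from NIH3T3, an established line of mouse embryo fibroblasts, labelled wild type and uncloned (called parental here), and from 3 clones of it, F5, G5 and H7, each labelled as a knockout of Aebp1, the gene of a secreted collagen-binding protein. Passages 6, 7 and 8 of the parental line and passages 7, 8 and 9 of every clone were sequenced, in 4 groups of 3 libraries, all grown in DMEM/F12 with 10% fetal bovine serum and no other agent. Each clone grew from a single cell and the parental line is a mixed population, so cloning and the knockout cannot be told apart. Whether the passages came from separate cultures is not stated in the labels, so every p-value measures the spread between these samples alone.

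In the integrated stress response, kinases that sense missing amino acids, unfolded protein in the endoplasmic reticulum, viral RNA or lack of heme phosphorylate the translation factor eIF2, which lowers protein synthesis overall and raises the translation of ATF4. ATF4 pairs with C/EBP and related proteins on composite DNA elements and raises the transcription of genes that make, import and load amino acids onto tRNA, together with regulators such as CHOP (Ddit3) and TRIB3 that tune or end the response. Much of this control acts on the translation of Atf4 mRNA, which RNA levels do not measure.

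The promoter sequences are shown first because some of them hold a match to the element that ATF4 and its partners read. Binding was not measured. The motif TGATGNAA, where N is any base, was searched on both strands of RefSeq windows of 300 bases (GRCm38.p6), from 250 bases before to 50 bases after each annotated start. Of the 34 members with a window, 14 (41.176%) held it, against 2.68% of the 9925 tested genes with a window and 4.511% of all 27025 genes with one. These members were chosen as known ATF4 targets, so the share describes them and supports nothing further. By role, it was held by 5 of 13 stress regulators, 2 of 8 synthesis genes, 2 of 6 transport genes and 5 of 7 tRNA charging genes with a window. Matches that lie before the start are printed 5′ to 3′ on the strand of the gene, with the motif in capitals and up to 20 bases on each side. TTGCATCA and TTTCATCA are the motif read on the opposite strand. Slc7a11 held 2 matches before the start, so its printed stretches overlap. Not printed are the matches of Trib3, Slc1a4, Iars and Yars and a second match of Aars, which reached past the start or lay after it. The members with no window were Cth, Slc7a5, Slc7a3, Nars, Lars and Wars.
Atf3 (chr1:191183416-191183463, minus strand): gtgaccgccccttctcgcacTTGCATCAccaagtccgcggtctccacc
Chac1 (chr2:119351029-119351076, plus strand): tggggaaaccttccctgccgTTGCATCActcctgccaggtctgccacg
Nupr1 (chr7:126625553-126625600, minus strand): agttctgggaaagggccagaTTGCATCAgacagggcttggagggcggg
Vldlr (chr19:27216800-27216847, plus strand): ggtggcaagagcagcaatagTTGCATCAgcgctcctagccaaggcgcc
Asns (chr6:7693210-7693252, minus strand): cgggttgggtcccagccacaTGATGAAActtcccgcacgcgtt
Pycr1 (chr11:120643824-120643871, minus strand): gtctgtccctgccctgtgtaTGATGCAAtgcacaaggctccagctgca
Slc7a11 (chr3:50443652-50443699, minus strand): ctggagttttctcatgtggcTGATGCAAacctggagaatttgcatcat
Slc7a11 (chr3:50443633-50443680, minus strand): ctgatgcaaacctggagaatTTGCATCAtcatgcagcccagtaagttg
Aars (chr8:111033710-111033757, plus strand): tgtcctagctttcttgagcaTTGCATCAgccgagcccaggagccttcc
Gars (chr6:55037951-55037998, plus strand): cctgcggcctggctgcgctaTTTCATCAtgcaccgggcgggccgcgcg
Tars (chr15:11399659-11399693, minus strand): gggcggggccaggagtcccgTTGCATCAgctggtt

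The libraries held between 22088714 and 31329755 estimated counts. Aebp1 fell in every clone, from 553 ± 76.6 (SD, n = 3) counts per 1000000 counts (CPM) in the parental line to 193 ± 19.9 in F5, 147 ± 14.4 in H7 and 128.3 ± 8.46 in G5 (n = 3 each). The log2 fold change for the mean of the clones was -1.84 ± 0.09 (SE, adjusted p = 1.69e-06), so its mRNA was reduced and not absent. All 10 fibroblast markers were detected in the libraries, with a summed level of 23629 to 29475 CPM. Summed markers of epithelial, endothelial, adipocyte and muscle cells stayed under 1 CPM in every library. The epithelial sum was 0.589 to 0.995 CPM in H7 and at most 0.308 elsewhere, and the endothelial sum 0.516 to 0.836 in H7 and at most 0.492 elsewhere. Cdh1 had 22, 14 and 21 counts in H7 against 0 to 3 in the other libraries, and Pecam1 15, 10 and 16 against 1 to 10. Their part in the H7 results was not tested. Of the markers of these 4 cell types, Epcam, Cldn4, Kdr, Tie1, Cidec, Myod1 and Myog were at 0 throughout, and the others had counts in some libraries. Leukocyte markers summed to between 3.11 and 5.27 CPM, with Adgre1 and Cd3e at 0. The library of passage 7 was the lowest parental library for 30 of the 40 members and the library of passage 6 the highest for 33. The 33 include Gdf15, a tie at 0 in all 3 parental libraries. In these bulk libraries, fewer cells that express a gene and less RNA of it per cell cannot be told apart.

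The question put first was whether the ATF4 genes differed between the knockout clones and the parental line. Almost the whole list was higher in the clones. Averaged over the 3 clones and set against the parental line, 37 of 40 members rose and 0 fell, where edgeR's quasi-likelihood test called 19% of all genes, 8.55% higher and 10.5% lower. The median log2 fold change was 0.78 over the members and -0.02 over all genes tested. The 0 members called lower also stood at 0 at an unadjusted p under 0.05 and at 0 with DESeq2. Changes of over 4-fold were seen in 4 members (Gdf15 by its fitted value), 10 members changed 2- to 4-fold, 25 were higher by less than that and 1, Slc38a2, had a negative estimate. Of all genes tested, 2.231% had a log2 fold change above 1.

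Clone by clone, 33 members rose in F5, 34 in G5 and 34 in H7, with 0 called lower in each. The same test called 6.88% of all genes higher and 7.37% lower in F5, 6.54% higher and 6.56% lower in G5, and 9.64% higher and 9.92% lower in H7. The 0 lower members became 1 in each clone with p-values left unadjusted (under 0.05). By DESeq2, 1 was lower in F5 and 0 in the other clones. In all 3 clones together, 31 members rose and 0 fell, against 2.54% and 2.14% of all genes. In 34 of 40 members every one of the 9 clone libraries lay above every parental library, against 5.49% of all genes, and in 0 members every clone library lay below, against 5.16%. Without Gdf15, which had to differ to pass the filter, 36 of 39 members rose for the mean, 32 in F5, 33 in G5, 33 in H7 and 30 in all 3, and 33 did not overlap. The comparisons of the clones share the same 3 parental libraries. Without the parental library of passage 7, 34 members rose for the mean of the clones, 33 in F5, 32 in G5, 31 in H7 and 28 in all 3. When each clone was fitted with the parental libraries alone, 22 rose in G5 and 17 in all 3 clones. Over the settings that did not leave out a single library, the lowest counts were 25 in F5 and 23 in H7.

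**Figure D1:**
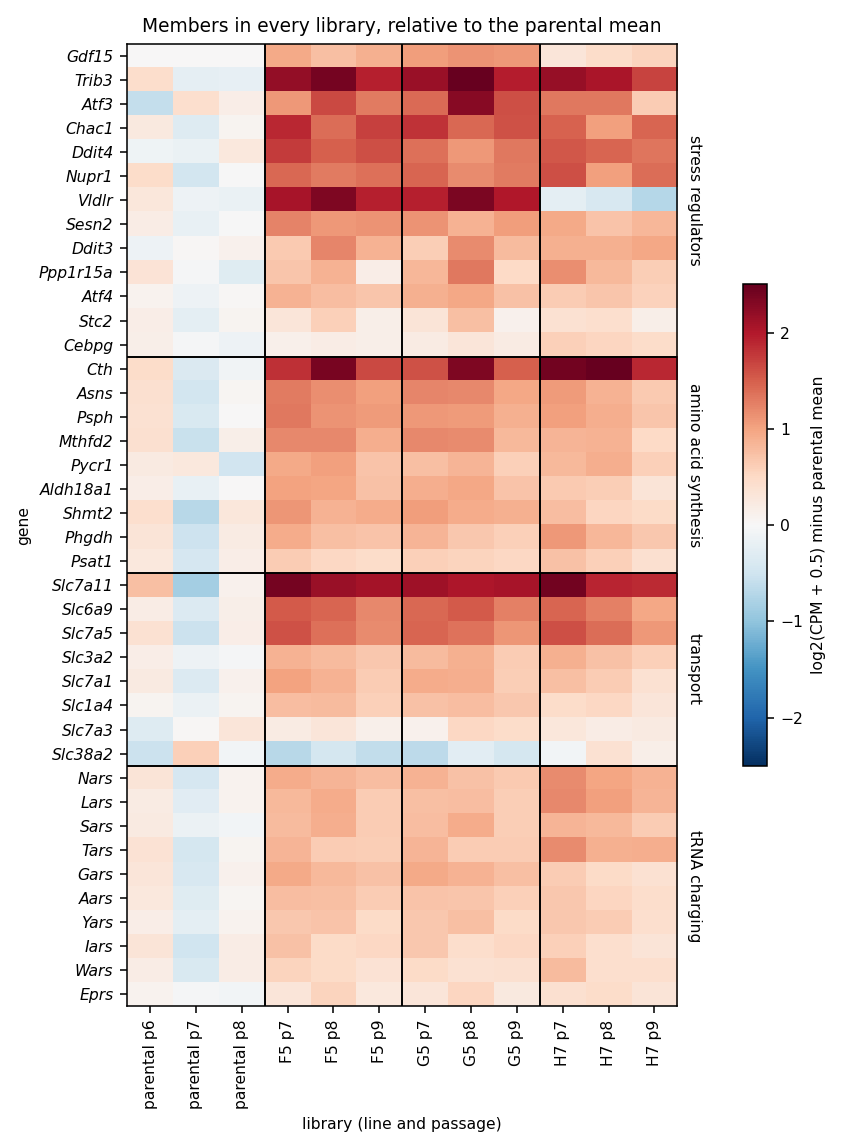
Colour shows log2(CPM + 0.5) minus the mean of the 3 parental libraries for each of the 40 genes (rows, by role) in each of the 12 libraries (columns, by line and passage). The clone columns are above the parental mean for nearly every row, and the rows of Vldlr and Slc38a2 change between clones.

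**Figure D2:**
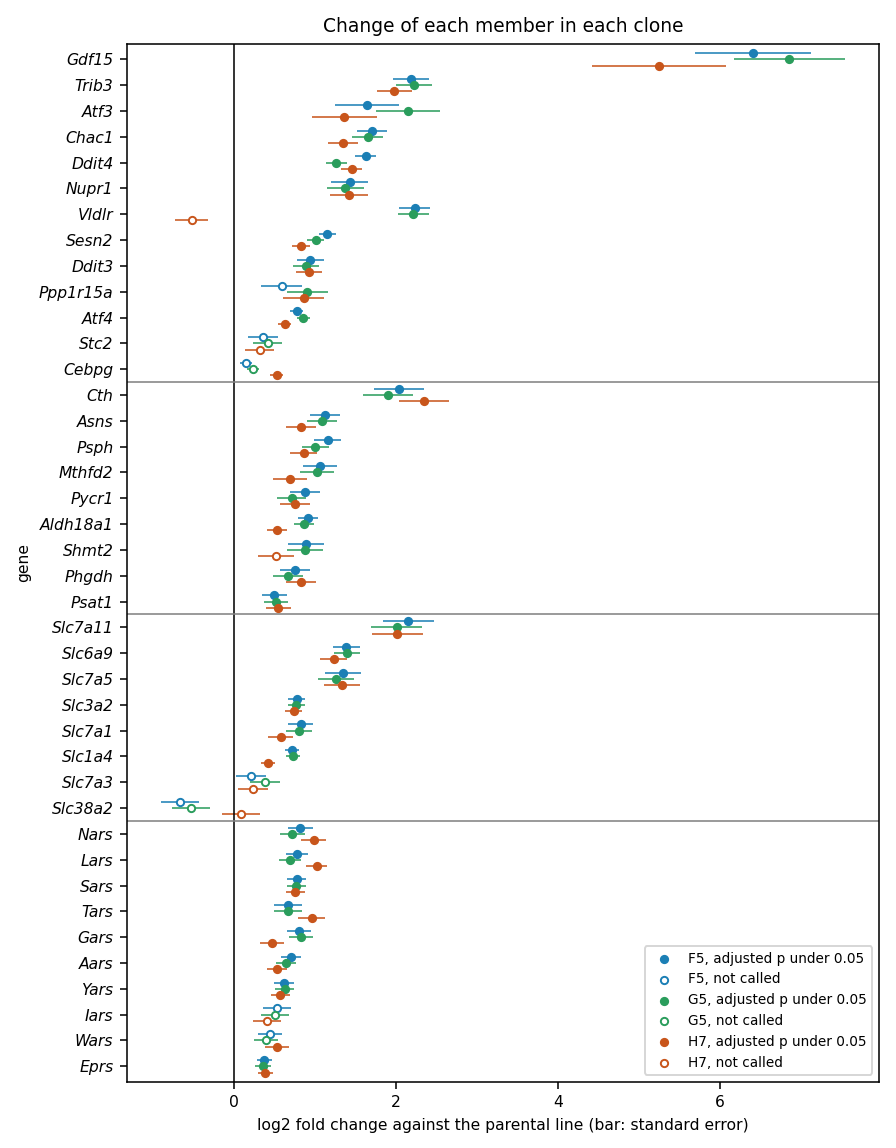
Points give the log2 fold change of each member in F5, G5 and H7 against the parental line, bars give its standard error, and filled points were called at an adjusted p under 0.05. The 3 clones lie close together for most genes, and negative estimates are seen for Vldlr in H7 and for Slc38a2 in F5 and G5.

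Among the 13 stress regulators, 12 rose for the mean of the clones and 9 rose in all 3, with a median log2 fold change of 1.31. Without Gdf15 the counts were 11 of 12 and 8. Atf4 encodes the factor itself and lies at chr15:80255184-80257541 on the plus strand (GRCm38, GENCODE M21). Its level was 321, 279 and 312 CPM in the parental line, 553, 516 and 493 in F5, 561, 592 and 504 in G5, and 469, 491 and 449.9 in H7, in the order of the passages, an order kept in each such sentence below. The parental and clone libraries did not overlap, and the mean log2 fold change was 0.76 ± 0.07 (SE, adjusted p = 6.48e-05), from 0.63 in H7 to 0.86 in G5. Every change given below with an SE is such a log2 fold change, for the mean of the clones unless a clone or a passage comparison is named. Per length, Atf4 was the highest of the 40 members in the parental line, at 317 ± 15.9 TPM (transcripts per 1000000; SD, n = 3), and stood at 601 ± 27.3 in G5, 552 ± 31.7 in F5 and 490.1 ± 29.6 in H7 (n = 3 each). In H7, the median gene of chromosome 15, over 534 genes, was itself 0.45 higher on the log2 scale, and the Atf4 change beyond that median was 0.18. The part of that chromosome shift in the Atf4 result was not tested, and in F5 and G5 no chromosome median lay over 0.2 from 0. The median furthest from 0 in these clones was -0.196, on chromosome 7 in F5, where Cebpg, Nupr1 and Ppp1r15a lie. Less that median, the F5 change was 0.35 for Cebpg, 1.63 for Nupr1 and 0.79 for Ppp1r15a. The part of the chromosome 7 shift in these results was not tested.

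Atf3, a stress-induced transcription factor of the same family, was low throughout. It stood at 0.492, 1.4998 and 1.19 CPM in the parental line, 2.68, 4.20 and 3.16 in F5, 3.50, 6.71 and 4.06 in G5, and 3.22, 3.24 and 1.81 in H7. The highest parental library and the lowest H7 library were close, and the mean change was 1.72 ± 0.35 (SE, adjusted p = 0.00616). Ddit3 encodes CHOP, which in prolonged stress promotes cell death. It was at 17.9, 19.97 and 21.1 CPM in the parental line, 31.03, 46.4 and 36.3 in F5, 30.2, 45.2 and 34.4 in G5, and 36.9, 36.6 and 38.9 in H7, with no overlap between parental and clone libraries and a mean change of 0.92 ± 0.14 (SE, adjusted p = 0.00124). Ddit3 overlaps Mars on the opposite strand, with the use of strand not given in the sources used here. Trib3 is a pseudokinase that binds ATF4 and restrains it. Its values were 19.9, 12.2 and 12.4 CPM in the parental line, 67.6, 77.9 and 56.7 in F5, 66.3, 83.7 and 57.9 in G5, and 67.1, 60.8 and 47.7 in H7. Every clone library was well above every parental one, with a mean change of 2.13 ± 0.20 (SE, adjusted p = 6.51e-05), from 1.98 in H7 to 2.23 in G5.

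Chac1 encodes an enzyme that breaks down glutathione. It measured 12.7, 8.33 and 11.2 CPM in the parental line, 40.4, 28.9 and 35.8 in F5, 38.5, 29.6 and 32.996 in G5, and 30.4, 21.99 and 29.9 in H7. All clone libraries were higher than all parental ones, with a mean log2 fold change of 1.57 ± 0.17 (SE, adjusted p = 0.000137). Nupr1 encodes a small stress-induced chromatin protein, counted at 5.23, 2.53 and 3.60 CPM in the parental line, 10.6, 9.66 and 10.2 in F5, 10.9, 8.84 and 9.76 in G5, and 12.1, 7.92 and 10.3 in H7. Its clones sat together, with a mean change of 1.41 ± 0.20 (SE, adjusted p = 0.000865) and a range from 1.38 in G5 to 1.43 in F5. Ddit4 encodes REDD1, an inhibitor of mTORC1 signalling. It had 21.4, 20.2 and 27.8 CPM in the parental line, 78.6, 65.02 and 71.4 in F5, 59.96, 48.9 and 58.1 in G5, and 68.6, 63.3 and 58.9 in H7. It had the smallest adjusted p of the 40 members, with 1.45 ± 0.11 (SE, adjusted p = 2.23e-05) and no overlap. Sesn2 encodes a sestrin, a leucine sensor that also restrains mTORC1. It reached 36.2, 27.9 and 31.7 CPM in the parental line, 75.5, 67.7 and 70.1 in F5, 69.6, 58.1 and 65.6 in G5, and 61.5, 52.0 and 56.7 in H7. The change was 1.00 ± 0.09 (SE, adjusted p = 6.47e-05), with the parental libraries all lower.

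Gdf15, a secreted hormone of stressed cells, gave 0 counts in every parental library, which allows up to 0.0426 CPM over the 3 libraries at 3 counts. Its levels were 0, 0 and 0 CPM in the parental line, 0.460, 0.345 and 0.424 in F5, 0.530, 0.589 and 0.558 in G5, and 0.119, 0.184 and 0.236 in H7. Summed counts were 42 in G5, 34 in F5 and 14 in H7, at least 13.1-fold, 9.52-fold and 4.23-fold higher than that limit, which covers counting error only.

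Vldlr, a lipoprotein receptor, was the member that parted the clones. It measured 5.23, 3.79 and 3.69 CPM in the parental line, 19.2, 23.1 and 17.4 in F5, 17.5, 23.4 and 18.2 in G5, and 3.46, 3.06 and 2.36 in H7. F5 and G5 were far above the parental line, by 2.23 ± 0.19 (SE, adjusted p = 5.93e-05) and 2.22 ± 0.19 (SE, adjusted p = 5.65e-05), whereas all 3 H7 libraries lay below the lowest parental library without being called, at -0.51 ± 0.20 (SE, adjusted p = 0.0983). The remaining regulators were weaker. Cebpg, which encodes a partner of ATF4 on DNA, was called in H7 alone, at 0.53 ± 0.08 (SE, adjusted p = 0.000731), and its F5 and parental libraries overlapped. Ppp1r15a, whose product GADD34 directs removal of phosphate from eIF2, was called in G5 and H7 and stood at 0.60 ± 0.25 (SE, adjusted p = 0.144) in F5. Its call for the mean was lost without the parental library of passage 7 (adjusted p = 0.0771) or of passage 8 (adjusted p = 0.108). Stc2, a secreted glycoprotein, was called in no clone and had 0.37 ± 0.15 (SE, adjusted p = 0.113) for the mean.

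**Figure D3:**
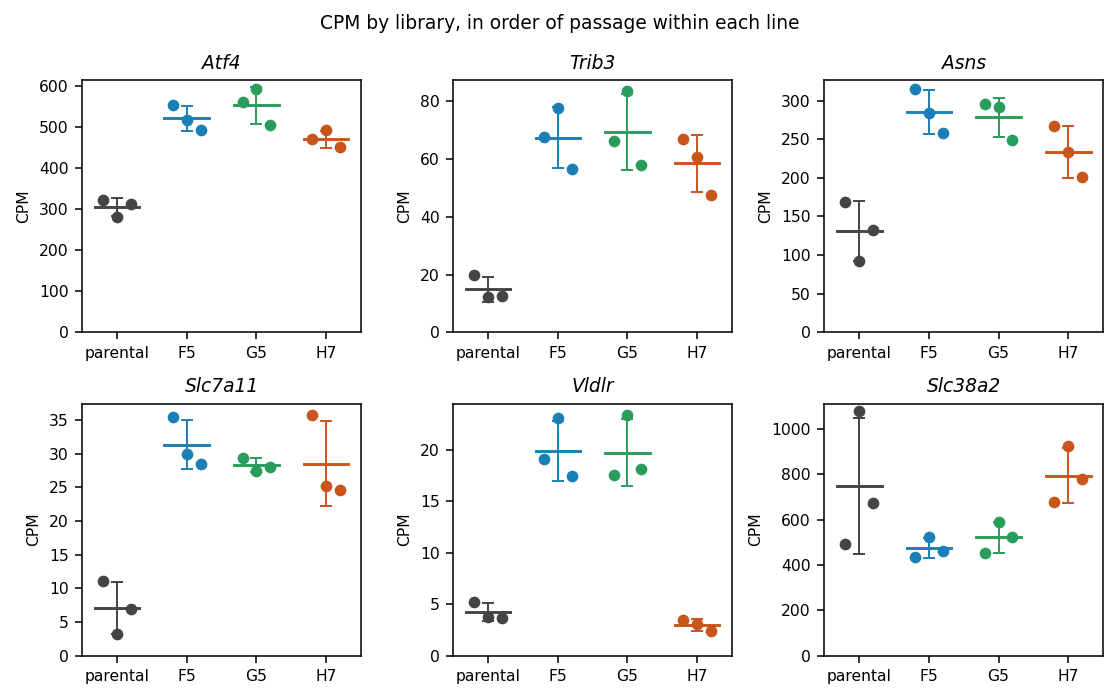
Each panel gives CPM by library for Atf4, Trib3, Asns, Slc7a11, Vldlr and Slc38a2 on an axis from 0. Points are libraries, lines are group means and bars are SD (n = 3). Atf4, Trib3, Asns and Slc7a11 separate the clones from the parental line, Vldlr is high in F5 and G5 alone, and the parental Slc38a2 values run from 491 to 1079.

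All 9 amino acid synthesis genes rose for the mean of the clones and 8 rose in all 3, with a median log2 fold change of 0.78. Asns makes asparagine from aspartate and glutamine and is a classic ATF4 target. It measured 169, 91.7 and 132 CPM in the parental line, 315, 284 and 258 in F5, 295, 291 and 249 in G5, and 267, 233 and 200.4 in H7. Clone and parental libraries did not overlap, and the change was 1.02 ± 0.16 (SE, adjusted p = 0.00164), from 0.83 in H7 to 1.13 in F5. Phgdh, Psat1 and Psph are the successive enzymes of serine synthesis. Phgdh had 232, 129.9 and 214 CPM in the parental line, 352, 312 and 306 in F5, 336, 298 and 282 in G5, and 397, 332 and 296 in H7, and Psat1 had 413, 257 and 389 CPM in the parental line, 537, 493 and 473 in F5, 524, 506 and 492 in G5, and 574, 523 and 455 in H7. Both had their lowest value in the parental library of passage 7 and no overlap, with changes of 0.75 ± 0.16 (SE, adjusted p = 0.00736) for Phgdh and 0.53 ± 0.13 (SE, adjusted p = 0.0151) for Psat1. Psph was less abundant in CPM, at 22.3, 12.9 and 17.05 CPM in the parental line, 43.3, 37.6 and 36.1 in F5, 36.9, 36.2 and 32.04 in G5, and 34.9, 32.2 and 27.96 in H7. It rose by 1.01 ± 0.14 (SE, adjusted p = 0.00084), with the caution that it overlaps the more abundant Cct6a on the opposite strand.

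Mthfd2 is the mitochondrial folate enzyme that carries one-carbon units from serine. It had 94.6, 48.9 and 79.6 CPM in the parental line, 167, 165 and 134 in F5, 166, 164 and 126 in G5, and 129, 131 and 102 in H7. The clones were above all parental libraries, by 0.93 ± 0.18 (SE, adjusted p = 0.00492). Shmt2, which releases those units from serine, was called in F5, at 0.89 ± 0.22 (SE, adjusted p = 0.0222), and in G5, at 0.89 ± 0.22 (SE, adjusted p = 0.0241). In H7 it stood at 0.52 ± 0.22 (SE, adjusted p = 0.129). Its 3 parental libraries ran from 126.3 to 276 CPM. Aldh18a1 and Pycr1 catalyse the first and last steps of proline synthesis from glutamate. Aldh18a1 was at 174, 137 and 156 CPM in the parental line, 313, 308 and 259 in F5, 293, 304 and 254 in G5, and 245, 237 and 194 in H7. It rose by 0.77 ± 0.10 (SE, adjusted p = 0.000593), with H7 the lowest of the clones. Pycr1 was at 17.1, 17.4 and 10.2 CPM in the parental line, 28.2, 30.1 and 23.99 in F5, 24.8, 26.5 and 22.2 in G5, and 25.9, 27.7 and 22.03 in H7. Parental libraries were all lower, and the change was 0.78 ± 0.15 (SE, adjusted p = 0.0053). Cth makes cysteine from cystathionine and had the largest change of the synthesis genes. Its level was 8.18, 4.46 and 5.45 CPM in the parental line, 22.1, 32.5 and 19.3 in F5, 18.7, 31.6 and 17.3 in G5, and 33.4, 35.5 and 22.9 in H7. Every clone library was far above the highest parental library, and the mean change was 2.09 ± 0.28 (SE, adjusted p = 0.000584), from 1.90 in G5 to 2.35 in H7.

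Of the 8 transport genes, 6 rose for the mean of the clones, and the same 6 were those that rose in all 3, with a median log2 fold change of 0.75 over the 8. Slc7a11 encodes xCT, which imports cystine in exchange for glutamate. It measured 11.05, 3.28 and 6.85 CPM in the parental line, 35.4, 29.97 and 28.5 in F5, 29.4, 27.4 and 28.1 in G5, and 35.8, 25.2 and 24.6 in H7. The clones did not overlap the parental line, whose library of passage 7 was lowest, and the change was 2.06 ± 0.28 (SE, adjusted p = 0.000709), from 2.01 in G5 to 2.16 in F5. Slc7a5 encodes LAT1, which imports leucine and other large neutral amino acids. It stood at 151, 79.5 and 129.9 CPM in the parental line, 351, 303 and 263 in F5, 317, 299 and 248 in G5, and 355, 308 and 246 in H7. It was higher in all clone libraries, by 1.32 ± 0.19 (SE, adjusted p = 0.000947). Slc3a2 encodes CD98, the heavy chain that both of these transporters need at the membrane. It was at 153, 125 and 133 CPM in the parental line, 251, 236 and 219 in F5, 237, 253 and 213 in G5, and 255, 226 and 206 in H7. The gap between the groups was clear, with 0.76 ± 0.09 (SE, adjusted p = 0.000251).

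Slc7a1 encodes the main carrier of arginine and lysine. Its values were 158, 106 and 146 CPM in the parental line, 271, 247 and 211 in F5, 256, 254 and 207 in G5, and 227, 209 and 177 in H7. Clone libraries all lay above the parental ones, and the mean change was 0.74 ± 0.13 (SE, adjusted p = 0.00323). Slc1a4 encodes ASCT1, an exchanger of serine, alanine and cysteine. It had 71.9, 62.6 and 72.7 CPM in the parental line, 118, 120.3 and 105 in F5, 115, 119 and 109.5 in G5, and 95.6, 98.95 and 84.6 in H7. F5 and G5 were higher than H7, H7 was higher than the parental line, and the mean change was 0.63 ± 0.07 (SE, adjusted p = 0.00024). Slc6a9 encodes GLYT1, a glycine importer. It reached 71.2, 49.3 and 69.3 CPM in the parental line, 182, 171 and 144 in F5, 169, 181 and 149.9 in G5, and 173, 150.0 and 123 in H7. No clone library fell near the parental ones, with 1.34 ± 0.14 (SE, adjusted p = 0.000134).

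The other two transporters were not called. Slc7a3, a cationic amino acid carrier at under 5 CPM in every library, had 0.28 ± 0.16 (SE, adjusted p = 0.24). Slc38a2, which encodes SNAT2, a sodium-coupled importer of small neutral amino acids, went its own way. Its levels were 491, 1079 and 673 CPM in the parental line, 436, 524 and 463 in F5, 452, 591 and 523 in G5, and 679.9, 924 and 780.0 in H7. The parental values spread widely, with passage 7 highest, and overlapped those of every clone. The change was -0.36 ± 0.19 (SE, adjusted p = 0.206), with -0.66 in F5, -0.52 in G5 and, by contrast, 0.09 in H7. Leaving out the parental library of passage 6 gave -0.59 and a call of a lower level (adjusted p = 0.0305), and leaving out that of passage 7 gave -0.0012. Slc38a2 lies on chromosome 15, and its H7 change less that chromosome's median was -0.36.

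All 10 tRNA charging genes, which encode enzymes that join an amino acid to its tRNA in the cytosol, rose for the mean of the clones. In all 3 clones 8 rose, and the median log2 fold change was 0.67, with estimates between 0.38 and 0.85. Without the parental library of passage 7, 8 rose for the mean. Aars, for alanine, was at 358, 241 and 310.2 CPM in the parental line, 514, 503 and 467 in F5, 489, 484 and 450.2 in G5, and 479, 435 and 406 in H7, and Gars, for glycine, at 279.8, 172 and 245 CPM in the parental line, 439.8, 399 and 376 in F5, 437, 417 and 385 in G5, and 353, 319 and 296 in H7. In both, the parental library of passage 7 was lowest and no clone library overlapped, with 0.63 ± 0.10 (SE, adjusted p = 0.00192) for Aars and 0.70 ± 0.13 (SE, adjusted p = 0.00323) for Gars. Sars, for serine, stood at 134, 103 and 109 CPM in the parental line, 198, 216 and 179 in F5, 196, 219.5 and 177 in G5, and 208, 201 and 178 in H7. Its change of 0.77 ± 0.10 (SE, adjusted p = 0.000521) was alike in the clones, from 0.76 in H7 to 0.78 in F5.

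Nars charges asparagine and measured 134, 80.6 and 115 CPM in the parental line, 205, 194 and 184 in F5, 197, 178 and 169 in G5, and 243, 214 and 198 in H7. Lars charges leucine and measured 121, 86.1 and 113 CPM in the parental line, 184, 202 and 163 in F5, 178, 179.8 and 161 in G5, and 244, 217 and 189.7 in H7. Tars charges threonine and measured 161, 91.4 and 131 CPM in the parental line, 224, 193 and 192 in F5, 225, 193 and 192 in G5, and 281, 232 and 233 in H7. H7 was the highest clone in all 3 of these genes, and the mean changes were 0.85 ± 0.13 (SE, adjusted p = 0.00143) for Nars, 0.83 ± 0.11 (SE, adjusted p = 0.000685) for Lars and 0.77 ± 0.15 (SE, adjusted p = 0.00434) for Tars. Each lies on a chromosome whose median was raised in H7. Less the median, the H7 change went from 0.99 to 0.74 for Nars and from 1.02 to 0.77 for Lars on chromosome 18, whose median was 0.25, and from 0.96 to 0.52 for Tars on chromosome 15. The part of the chromosome shifts in these results was not tested.

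Yars, for tyrosine, was at 124, 93.3 and 117 CPM in the parental line, 177, 183 and 155 in F5, 176, 188 and 154 in G5, and 178, 172 and 149 in H7. It did not overlap and changed by 0.61 ± 0.10 (SE, adjusted p = 0.00206). Eprs, the bifunctional enzyme for glutamate and proline, was at 338, 309.6 and 303 CPM in the parental line, 391, 466 and 381 in F5, 388, 457 and 375 in G5, and 417, 436 and 395 in H7. It had the smallest change of the group, at 0.38 ± 0.08 (SE, adjusted p = 0.00864), though clone and parental libraries stayed apart. Wars, for tryptophan, was called in H7 alone, at 0.53 ± 0.15 (SE, adjusted p = 0.0265). Iars, for isoleucine, was called in no single clone but passed for the mean, at 0.49 ± 0.14 (SE, adjusted p = 0.0375). The Iars call was lost in 9 of the 12 fits that left out 1 library, with 0.28 (adjusted p = 0.0705) without the parental library of passage 7. Without that library Wars stood at 0.29 for the mean (adjusted p = 0.0624), down from 0.46. In both, every clone library lay above every parental library. Yars and Wars overlap other tested genes on the opposite strand (C77080 and Wdr25), as do Slc7a5 and Slc6a9.

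Differences between the clones were then tested directly. F5 and G5 differed in 0 of 40 members by edgeR, with 1 at an unadjusted p under 0.05 and 0 by DESeq2, where 0.258% of all genes were called. F5 and H7 differed in 5 members, against 17.9% of all genes, and G5 and H7 in 4, against 17.4%. The 5 were Vldlr, Cebpg, Aldh18a1, Slc1a4 and Slc38a2, and the 4 were Vldlr, Cebpg, Gdf15 and Slc1a4. All were named from their values, Vldlr by the rule of a called difference over 1 (log2) between 2 clones. Neither count stands out from its background share. That of G5 and H7 includes Gdf15, which passed the filter through F5 and G5 libraries alone, so its call supports nothing further. Vldlr was the largest, 2.75 ± 0.19 (SE, adjusted p = 7.32e-06) higher in F5 than in H7 and 2.73 ± 0.19 (SE, adjusted p = 5.03e-06) higher in G5. The count for F5 and H7 was 9 without the parental library of passage 7, and 3 without that of passage 8 or without G5 of passage 9. It was 2 without F5 of passage 7 or 8, G5 of passage 7 or 8, or H7 of passage 7, 8 or 9. The count for G5 and H7 was 10 without the parental library of passage 7, 2 without G5 of passage 7 or H7 of passage 8, and 1 without H7 of passage 7. In H7, the chromosome median was also -0.22 on chromosome 6, where Asns, Gars and Mthfd2 lie, and -0.21 on chromosome 10, where Ddit3, Ddit4 and Shmt2 lie. The change less that median was 1.05 for Asns, 0.69 for Gars, 0.92 for Mthfd2, 1.14 for Ddit3, 1.67 for Ddit4 and 0.73 for Shmt2.

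Genes around the pathway were counted for comparison on the clone mean, where the background was 8.55% of all tested genes higher and 10.5% lower. Of 13 genes upstream of ATF4, which encode the eIF2 kinases and their regulators, an eIF2 subunit, its exchange factor eIF2B and a phosphatase subunit, 0 were called higher and 1 lower for the mean of the clones, with a median log2 fold change of 0.08. The counts at an unadjusted p under 0.05 were 2 higher and 2 lower, and those of DESeq2 0 higher and 1 lower. The lower gene was Eif2ak4, which encodes GCN2, the kinase that senses uncharged tRNA, at -0.30 ± 0.09 (SE, adjusted p = 0.0363). Taken alone, it was called lower in H7 (-0.36, adjusted p = 0.0418) and in neither other clone, and it was not called for the mean without the parental library of passage 7.

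A second list held 22 other known ATF4 targets, of which 21 were tested. In this list 13 rose and 1 fell, with a median of 0.57, and 10 rose in all 3 clones. Adm2, Fgf21 and Fam129a had fewer than 3 parental libraries at the filter's minimum of 10 counts in a library of median size and needed clone libraries to pass. Without them 11 of 18 rose, and 9 in all 3 clones. Aldh1l2, a mitochondrial folate enzyme, rose by 1.18 ± 0.13 (SE, adjusted p = 0.000163) and Pck2, the mitochondrial PEPCK, by 1.11 ± 0.13 (SE, adjusted p = 0.000316). Slc38a1, another neutral amino acid importer, rose by 0.48 ± 0.06 (SE, adjusted p = 0.000473). Adm2, a peptide hormone, was at 0.447, 0.316 and 0.439 CPM in the parental line, 2.15, 2.29 and 1.58 in F5, 2.26, 2.04 and 1.99 in G5, and 0.756, 0.700 and 0.433 in H7. It rose by 2.32 ± 0.27 (SE, adjusted p = 0.000385) in F5 and 2.38 ± 0.27 (SE, adjusted p = 0.00029) in G5, whereas H7 overlapped the parental line at 0.65 ± 0.29 (SE, adjusted p = 0.15). The mean was 1.78 ± 0.24 (SE, adjusted p = 0.000609), and Adm2 was higher than in H7 by 1.67 in F5 (adjusted p = 0.000989) and 1.73 in G5 (adjusted p = 0.00073). Because Adm2 needed clone libraries to pass the filter, its calls against the parental line support nothing further. Slc43a1, a large neutral amino acid transporter, was the 1 that fell, with a change of -0.86 ± 0.12 (SE, adjusted p = 0.000622), and is named because of its value.

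The 10 cytosolic synthetases that are not members were called higher in 4 cases and lower in 0, with a median of 0.29. They were Cars (0.66), Farsb (0.39), Mars (0.52) and Vars (0.43), for cysteine, phenylalanine, methionine and valine. There were 6 higher and 0 lower at an unadjusted p under 0.05 and likewise by DESeq2. Of 17 mitochondrial synthetases, 3 rose and 0 fell, with a median of 0.11. Nars2 (0.39) and Ears2 (0.25) were among those that rose. Unadjusted, at a p under 0.05, there were 4 and 0, by DESeq2 3 and 0, and without the parental library of passage 7 there was 1. The difference between these lists and the members was not tested.

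Of 18 endoplasmic reticulum chaperones and folding factors, 3 rose and 5 fell, with a median of -0.10. Herpud1, which serves the removal of misfolded proteins, rose by 0.58 ± 0.06 (SE, adjusted p = 9.85e-05), and Edem1 by 0.29 ± 0.07 (SE, adjusted p = 0.0148). The chaperone genes Pdia3 and Hsp90b1 fell, with changes of -0.36 ± 0.08 (SE, adjusted p = 0.00675) and -0.38 ± 0.08 (SE, adjusted p = 0.00805). The changes of Hsp90b1 and Edem1 were uneven between clones. Mean TPM of Hsp90b1 was lowest for H7, at 306, against 520 for G5, 473 for F5 and 539 for parental cells. Edem1 had 29.7 TPM for H7, close to the parental 28.2, against 40.8 for G5 and 36.1 for F5. Hsp90b1 lies on chromosome 10, whose H7 median was -0.21, and the part of that shift in its change was not tested. Named for their counts after the values were seen, Sel1l (0.31) also rose, and Dnajc3 (-0.31), Calr (-0.45) and Dnajb9 (-0.25) also fell. Of 11 p53 targets, 8 rose and 0 fell, with a median of 0.81, and 7 rose in all 3 clones. Unadjusted, at a p under 0.05, 9 were higher and 1 lower, and by DESeq2 8 and 0. Plk2 (0.93), Trp53inp1 (1.38), Zmat3 (0.81) and Ccng1 (1.07) had the smallest adjusted p. Of 10 NRF2 targets, the antioxidant genes, 0 were called in either direction, with a median of 0.08, 1 higher and 0 lower at an unadjusted p under 0.05, and 1 higher by DESeq2.

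**Figure D4:**
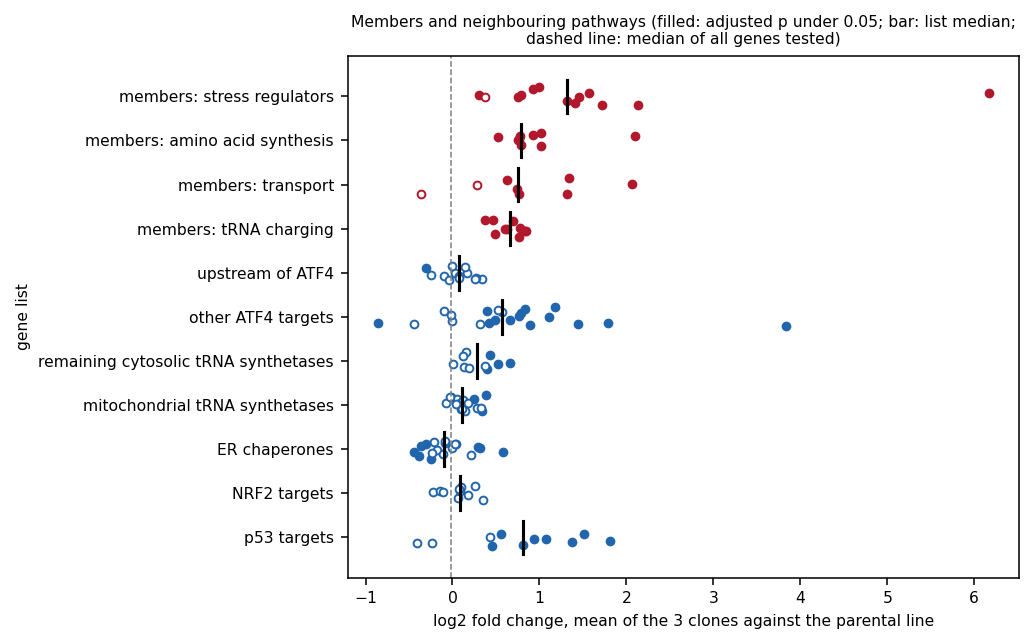
Each point is the log2 fold change of 1 gene, averaged over the clones and set against the parental line, arranged by list, with filled points for genes called at an adjusted p under 0.05. Bars mark the list medians and the dashed line the median of all genes tested (-0.02). The 4 member lists and the other ATF4 targets lie mostly above the line, and the upstream genes lie around it. Also mostly above 0 are the p53 targets (9 of 11), the remaining cytosolic synthetases (10 of 10) and the mitochondrial synthetases (14 of 17).

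Passage was the last comparison, since the members also varied within lines. The passages of a line were taken as the first, the second and the third, which are passages 6, 7 and 8 in the parental line and 7, 8 and 9 in the clones. In the middle passages against the outer ones, 4 members rose and 4 fell, with a median of -0.04, where 32.1% of all genes were called, 16.5% higher and 15.6% lower. Atf3 (0.63), Ddit3 (0.25), Pycr1 (0.24) and Slc38a2 (0.45) rose, whereas Chac1 (-0.40), Nupr1 (-0.36), Sesn2 (-0.19) and Tars (-0.24) fell. These genes were named after their values were seen. The 8 calls became 16 without the parental library of passage 7, 5 without F5 of passage 7 or 8 or G5 of passage 9, and 4 without F5 of passage 9 or G5 of passage 7 or 8.

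The third passages against the first, a comparison added after the values were seen, gave 0 called members, where 1.12% of all genes were called. The median was -0.20 and 5 of 40 estimates were positive. There were 0 higher and 15 lower at an unadjusted p under 0.05, and 0 higher and 4 lower by DESeq2. Without the parental library of passage 7, 24 members were called, 23 lower and 1 higher, the last being Slc38a2, in a fit that called 1350 of 14926 genes (9.04%). Without that of passage 8 there were 2. At an unadjusted p under 0.05, 2373 of the 14704 genes (16.1%) passed with all libraries. Passage 9 was the lowest library of its clone for 31 members in H7, 29 in F5 and 26 in G5. In the parental line the lowest was passage 7, at a median ratio of 0.736 to the mean of the other parental libraries over 39 members, 34 of them below 1, against 1.01 over all genes.

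**Figure D5:**
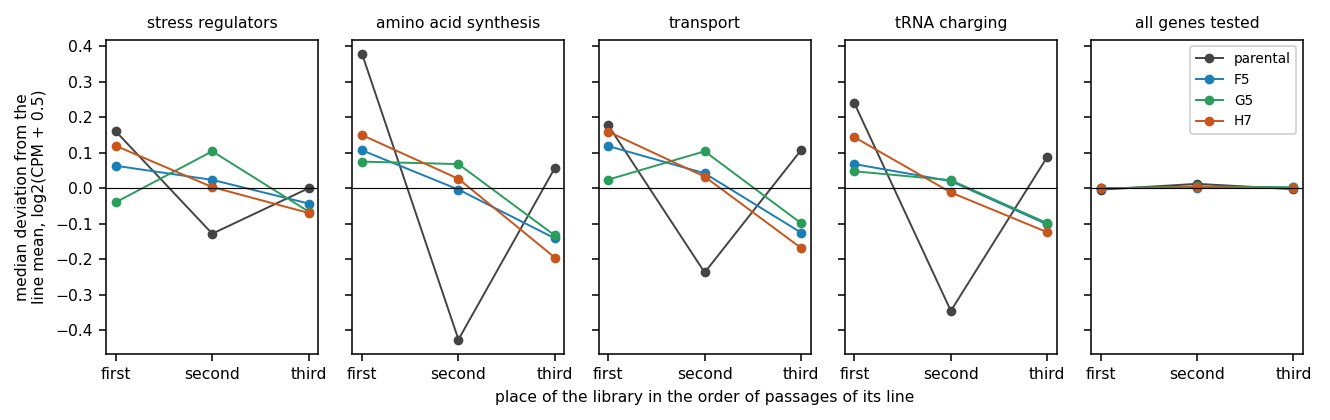
Lines give, for each cell line, the median deviation of the members of each role, and of all genes tested, from the mean of the line (log2 scale) at the first, the second and the third passage. Synthesis and tRNA charging genes dip at the second parental passage, to -0.43 and -0.35, and end below 0 in all 3 clones, while the median of all genes stays close to 0.

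Within lines, most of the 27 synthesis, transport and tRNA charging genes varied together. Over deviations of the 12 libraries from their line means, the median Pearson correlation between 2 of these 27 genes was 0.81, against -0.02 with genes that are not members, and 0.73 without the parental library of passage 7. Among the 13 stress regulators it was 0.15, and 0.06 without that library. Slc38a2 ran opposite to the other 26, with a median correlation of -0.73, or -0.39 without that library. Some others did not follow the group closely. Correlations with Asns over all 12 libraries were -0.32 for Slc7a3, 0.11 for Pycr1 and 0.37 for Eprs. They were higher for the rest of these genes apart from Slc38a2. These values are descriptions, since the genes share the same libraries and their depth.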

How the data were processed

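Total RNA was measured in 12 libraries, 3 in each of 4 groups set from the labels. Deposited by the authors were estimated counts per gene, not normalised, and TPM of the same genes, per the file headers. The TPM columns summed to 1000000, and 86.91% of the estimated counts above 0.5 lay within 0.01 of a whole number. The build is GRCm38, per the submitters' processing notes. Not given in the sources used here are the aligner, the counter, the annotation release and whether strand was used. RNA was ribosomal-RNA-depleted, made into stranded libraries and read from both ends, per the labels' protocols. Reads shared by overlapping or near-identical genes may have been split.

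GENCODE M21 gave symbols and coordinates to 48349 of 48795 identifiers. Counts were rounded, filtered with filterByExpr and tested with edgeR's quasi-likelihood F-test, with TMM factors, a model of group alone, all 12 libraries and 8 residual degrees of freedom. An adjusted p (Benjamini-Hochberg over 14704 genes) under 0.05 was called, with no fold threshold. SE is the log2 fold change divided by the root of F, and CPM uses the TMM factors. The biological coefficient of variation was 15.5%. Library totals of 22088714 to 31329755 set the precision of low genes, and the limit for 0 counts is 3 counts over a group. Passage comparisons added the place in the order of passages. Alternatives were other size factors, no filter, DESeq2, limma on log2(TPM + 1) and log2(TPM + 0.1), each library left out, passage blocks, fewer libraries in the fit, the 9 knockout libraries as 1 group and counts summed per line.

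Members and lists were chosen with earlier results of these data known. Values in every library are given for Atf4, for members called alike in all 3 clones, and for members that differ by over 1 (log2) between 2 clones with that difference called. Slc38a2 meets none of these rules and is given in every library because of its values. At most 4 genes with the smallest adjusted p are named from each other list. Some genes of the lists are not reported here by name. No 2 libraries held identical values. Scripts were tested on simulated data. Versions were Python 3.11.15, R 4.3.3, DESeq2 1.42.0, limma 3.58.1 and edgeR 4.0.16.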

Additional observations from a re-analysis of the deposited data

Results flagged for a closer look

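The following members differed between 2 clones in a direct test (edgeR's quasi-likelihood test, adjusted over all genes), while their effects are measured against the same parental libraries. Vldlr was higher in F5 than in H7 by 2.75 ± 0.19 (SE, adjusted p = 7.32e-06) and higher in G5 than in H7 by 2.73 ± 0.19 (SE, adjusted p = 5.03e-06). Cebpg was lower in F5 than in H7, at -0.38 ± 0.08 (SE, adjusted p = 0.00554), and lower in G5 than in H7, at -0.29 ± 0.08 (SE, adjusted p = 0.021). In F5 the median gene of chromosome 7, where Cebpg lies, stood at -0.196 against the parental line. The part of that shift in the Cebpg difference between F5 and H7 was not tested. Slc1a4 was higher in F5 by 0.30 ± 0.09 (SE, adjusted p = 0.0341) and higher in G5 by 0.30 ± 0.09 (SE, adjusted p = 0.0344). Aldh18a1 was higher in F5 than in H7 by 0.38 ± 0.12 (SE, adjusted p = 0.0485), and the difference between G5 and H7 was 0.33 ± 0.12 (SE, adjusted p = 0.0831). Slc38a2 was lower in F5 than in H7, at -0.74 ± 0.23 (SE, adjusted p = 0.0486), and stood at -0.61 ± 0.23 (SE, adjusted p = 0.104) for G5 and H7. Gdf15 was higher in G5 than in H7 by 1.61 ± 0.35 (SE, adjusted p = 0.012), on summed counts of 42 and 14, and stood at 1.16 ± 0.36 (SE, adjusted p = 0.0524) for F5 and H7. Gdf15 reached the filter's minimum in 2 F5, 3 G5 and 0 H7 libraries. It was thus tested through F5 and G5 alone, and its differences from H7 support nothing further. In H7 the median gene of chromosome 15, where Slc38a2 lies, was shifted by 0.45, and the part of that shift in the Slc38a2 difference was not tested.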

How the results depend on the processing

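Of the members given in every library, 32 are counted here, all but Slc38a2. For these 32, the mean change of the clones kept its direction and its call in all 384 values that left out 1 library. The same held in all 224 values under 7 other settings, which leave out the next 2. Slc38a2 was not called for the mean with all libraries, and the fits that called it lower are given below. With the 9 knockout libraries as 1 group, 1 of the 32 (Vldlr) lost its call, and Cebpg of the others. With counts summed per line, which leaves 1 parental value, 0 members and 0 of all genes were called for the mean. Of the 5 other members called, Iars lost its call in 9 of 12 fits without a library, Ppp1r15a in 2, Wars in 1 and Cebpg and Shmt2 in 0. Leaving out 1 library, higher members ran from 34 to 37 for the mean (37), 29 to 35 in F5 (33), 27 to 36 in G5 (34), 26 to 35 in H7 (34) and 24 to 33 in all 3 clones (31), full values in brackets. With only the libraries of the groups compared, they were 22 in G5 and 17 in all 3. Over all settings other than leaving out 1 library, they ran from 25 to 36 in F5, 22 to 37 in G5, 23 to 36 in H7 and 17 to 35 in all 3. Lower members ran from 0 to 1 in F5, in G5 and for the mean without a library, the 1 being Slc38a2 without the parental library of passage 6. DESeq2 and the passage number as a replicate block each called 1 lower in F5, Slc38a2. The order of passages as a block called 1 lower in F5, in G5 and for the mean, Slc38a2 (-0.60, -0.47 and -0.31, adjusted p = 0.00665, 0.0226 and 0.0412), and 1 in H7, Vldlr. F5 against H7 (5) ran from 2 to 9 and was 3 with no filter, 8 with the order block and 8 with only those libraries. G5 against H7 (4) ran from 1 to 10 and was 7 with the passage number block, 11 with the order block and 7 with only those libraries. Middle against outer passages (8) ran from 4 to 16. The third against the first passages (0) ran from 0 to 24 and was 1 with no filter and 4 with DESeq2. Libraries with the same passage number in different groups correlated at a median of 0.22, from -0.61 to 0.62 over 15 pairs, so the numbers were not taken as pairs, and 7 of 12 libraries correlated best with their own number. By place in the order the median was 0.44, from 0.05 to 0.62 over 18 pairs, and 11 of 12 correlated best with their own place, a hint from the data and not the design. Over all genes, 2800 were called for the mean, 4908 with the order block and 1356 with the 9 knockout libraries as 1 group. Of these calls, 1257 were higher and 1543 lower, against 1344 and 963 with limma on log2(TPM + 1) and 1364 and 980 on log2(TPM + 0.1). Low counts limit the precision of Gdf15 and Atf3, and the Gdf15 change, 6.17 by edgeR, was 0.56 with limma on log2(TPM + 1), where the pseudocount exceeds its level.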

Other observations

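NRF2 targets varied with passage. In the middle passages against the outer ones, 9 of 10 fell and 0 rose, with a median log2 fold change of -0.42, where 15.6% of all genes fell. With the parental library of passage 7 left out, 8 of 10 fell and 0 rose, with a median of -0.29. Nqo1, a quinone reductase, changed by -1.01 ± 0.20 (SE, adjusted p = 0.00484). Its levels were 46.3, 14.8 and 77.4 CPM in the parental line, 36.2, 22.8 and 36.5 in F5, 40.1, 20.1 and 40.8 in G5, and 63.5, 43.5 and 63.7 in H7. Txnrd1, a thioredoxin reductase, changed by -0.52 ± 0.09 (SE, adjusted p = 0.0021). Its levels were 318, 169.9 and 331 CPM in the parental line, 290.3, 204 and 285 in F5, 303, 221 and 289.5 in G5, and 236, 193 and 219.7 in H7. In both genes the second passage was the lowest library of each of the 4 lines. The p53 targets were called lower in 7 of 11 and higher in 1 in the same comparison, with Phlda3 at -0.45 ± 0.06 (SE, adjusted p = 0.000674) and Btg2 the 1 that rose, at 0.48 ± 0.10 (SE, adjusted p = 0.00606). The genes were named after their values were seen.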
